A study of Mus musculus with 6 samples.

Results

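Transcript levels of 9 genes for synaptic adhesion proteins were described in the hippocampus of Phf21b-depleted and WT mice. The genes are the neurexins *Nrxn2* and *Nrxn3*, the neuroligins *Nlgn1*, *Nlgn2*, and *Nlgn3*, and the leucine-rich repeat transmembrane proteins *Lrrtm1*, *Lrrtm2*, *Lrrtm3*, and *Lrrtm4*. They were chosen by gene symbol, and all 9 are among the 14477 genes of the expression matrix. RNA-Seq was performed on untreated hippocampi of 3 Phf21bΔ4/Δ4 mice, numbered 2, 3, and 6 as replicates, and 3 Phf21b+/+ mice, numbered 5, 7, and 8, with 1 library per mouse. Phf21bΔ4/Δ4 mice are homozygous for a CRISPR/Cas9 deletion within exon 4 of *Phf21b*, a gene for a chromatin-binding protein with a plant homeodomain finger. The deletion is carried in the whole body, the line was kept on a C57BL/6J background, and the study calls it a knockdown model. The study used male and female littermates, young adults aged 2 to 6 months unless it says otherwise, and the sex and exact age of each of these 6 mice are not given in the sources used here. The values are log2 CPM, the number of reads of a gene scaled to the effective library size of its library.

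Neurexins are presynaptic membrane proteins that bind partners across the synaptic cleft. Neuroligins and LRRTM proteins are postsynaptic partners that bind neurexins outside the cell and scaffold proteins inside it, and both kinds of partner can induce the assembly of presynaptic terminals. Neuroligin 1 is found mainly at glutamatergic synapses, neuroligin 2 at inhibitory synapses, and neuroligin 3 at both. LRRTM proteins act at glutamatergic synapses, and LRRTM4 is known as an organizer of synapses on dentate granule cells, where it binds heparan sulfate proteoglycans.

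In Phf21bΔ4/Δ4 hippocampi, 8 of the 9 genes had a mean log2 level above that of Phf21b+/+ hippocampi, and *Lrrtm4* was the exception. One gene, *Nrxn3*, rose past the threshold set on both the FDR (under 0.1) and the fold change (over 1.3) in limma's moderated test with Benjamini-Hochberg adjustment over all 14477 genes. Of all genes tested, 1.22% passed, 0.553% in the direction of a rise and 0.663% in the direction of a fall. The median log2 change was 0.45 over the 9 genes and -0.019 over all genes. In 6 of the 9 genes every Phf21bΔ4/Δ4 mouse lay above every Phf21b+/+ mouse, as did 15.0% of all genes, and in *Lrrtm4* every Phf21bΔ4/Δ4 mouse lay below, as did 16.0% of all genes (31.0% for both directions). Among the 5155 genes whose average level lay within the range of the 9 genes, the median log2 change was 0.06, and 22.0% had all Phf21bΔ4/Δ4 mice above. Each of the 9 genes had between 585 and 6347 reads in every mouse. An unadjusted p under 0.05 was reached by 7 of the 9 genes and by 23.6% of all genes, and the FDR of the 8 genes that did not pass ran up to 0.51.

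**Figure D1:**
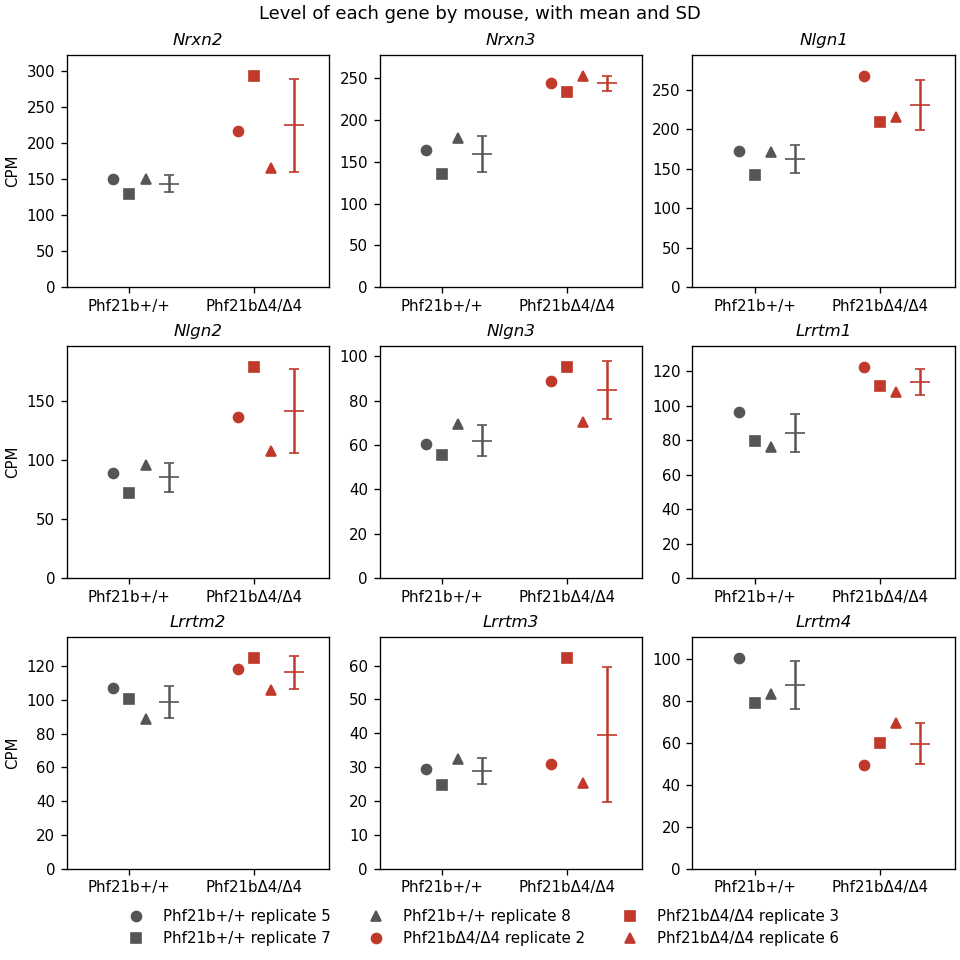
CPM of each of the 9 genes (vertical axes, from 0) in the Phf21b+/+ mice (grey) and the Phf21bΔ4/Δ4 mice (red), with 1 symbol per mouse and the mean ± SD (n = 3) beside them. *Nrxn2*, *Nrxn3*, *Nlgn1*, *Nlgn2*, *Nlgn3*, and *Lrrtm1* do not overlap between genotypes and are higher in Phf21bΔ4/Δ4 mice, *Lrrtm4* does not overlap and is lower, and *Lrrtm2* and *Lrrtm3* overlap.

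The libraries held between 20495605 and 24881257 reads on the listed genes. *Phf21b* itself had 2.15, 3.58, and 3.88 CPM in Phf21bΔ4/Δ4 replicates 2, 3, and 6 and 6.51, 5.24, and 6.48 CPM in Phf21b+/+ replicates 5, 7, and 8, so each library matched its label in direction (log2 change -0.96, standard error 0.26, FDR 0.141 by limma). Phf21b+/+ replicate 7 stood apart by its choroid plexus genes, a list of 6 markers (such as *Ttr*, the plasma and cerebrospinal fluid carrier of thyroid hormone) that summed to 15550 CPM there, 966 CPM in Phf21b+/+ replicate 8, and between 22.7 and 80.0 CPM in the other 4 mice. The same mouse had the lowest level of all 6 mice in 6 of the 9 genes. The 8 medial habenula markers summed to between 46.8 and 91.0 CPM in Phf21bΔ4/Δ4 mice and to between 273 and 410 CPM in Phf21b+/+ mice, with *Pou4f1* and *Irx2* at 0 reads in at least 1 mouse. The part of either in the levels of the 9 genes was not tested. In bulk tissue, fewer cells of a type and less RNA per cell cannot be told apart.

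*Nrxn3* (ENSMUSG00000066392.11) spans chromosome 12 of GRCm38 from 88722876 to 90334935 on the plus strand. It had 245, 234, and 253 CPM in Phf21bΔ4/Δ4 replicates 2, 3, and 6 and 164, 135, and 178 CPM in Phf21b+/+ replicates 5, 7, and 8. The 3 Phf21bΔ4/Δ4 mice lay close together and all were above the Phf21b+/+ mice. *Nrxn3* rose, with means of 244 ± 9.44 CPM in Phf21bΔ4/Δ4 and 159 ± 21.9 CPM in Phf21b+/+ mice (SD, n = 3 per genotype) and a log2 change of 0.62 (95% confidence interval 0.35 to 0.89, FDR 0.0931 by limma). The value is close to the threshold, and *Nrxn3* is not on the paper's list of changed genes from edgeR. When genes with an average log2 CPM under 1 were dropped, the FDR of *Nrxn3* was 0.106 and it no longer passed, and without Phf21bΔ4/Δ4 replicate 6 it was 0.042. With each of the other 5 mice left out in turn, the FDR of *Nrxn3* was above the threshold and reached 0.303, while its log2 change stayed between 0.51 and 0.71 in all 6 fits.

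*Nrxn2* (ENSMUSG00000033768.17) lies on chromosome 19 from 6418731 to 6544169 on the plus strand. Its levels were 217, 293, and 165 CPM in Phf21bΔ4/Δ4 replicates 2, 3, and 6 and 150.6, 130.0, and 150.3 CPM in Phf21b+/+ replicates 5, 7, and 8. The genotypes did not overlap, but Phf21bΔ4/Δ4 replicate 6 was close to the Phf21b+/+ mice and replicate 3 was far above them. The log2 change of *Nrxn2* was 0.61 (standard error 0.20, FDR 0.165 by limma) and moved from 0.40 without Phf21bΔ4/Δ4 replicate 3 to 0.82 without replicate 6, where the FDR was 0.0304. Within a mouse, the log2 ratio of *Nrxn3* to *Nrxn2* was 0.17, -0.33, and 0.61 in Phf21bΔ4/Δ4 replicates 2, 3, and 6 and 0.13, 0.06, and 0.25 in the Phf21b+/+ mice, so the Phf21bΔ4/Δ4 mice spread on both sides of the Phf21b+/+ mice (difference in means 0.01, exact 2-sided permutation test, p = 1.0). Neurexin genes have separate promoters for long α and short β forms, and a count summed over the gene does not separate these forms or the splice variants that set partner choice.

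*Nlgn1* (ENSMUSG00000063887.13) lies on chromosome 3 from 25426215 to 26332460 on the minus strand. Its levels were 268, 209, and 216 CPM in Phf21bΔ4/Δ4 replicates 2, 3, and 6 and 173, 143, and 172 CPM in Phf21b+/+ replicates 5, 7, and 8. All Phf21bΔ4/Δ4 mice were above all Phf21b+/+ mice, with a log2 change of 0.50 (95% confidence interval 0.20 to 0.81, FDR 0.135 by limma). *Nlgn2* (ENSMUSG00000051790.15), on chromosome 11 from 69823122 to 69837784 on the minus strand, had the largest change of the 9 genes, 0.70 on the log2 scale (95% confidence interval 0.23 to 1.17, FDR 0.145 by limma). Its levels were 137, 179, and 108 CPM in Phf21bΔ4/Δ4 replicates 2, 3, and 6 and 88.9, 71.9, and 95.8 CPM in Phf21b+/+ replicates 5, 7, and 8. Here too the genotypes did not overlap, and Phf21bΔ4/Δ4 replicate 3 was the highest mouse. *Nlgn3* (ENSMUSG00000031302.16), on chromosome X from 101299168 to 101325963 on the plus strand, had 88.7, 95.2, and 70.3 CPM in Phf21bΔ4/Δ4 replicates 2, 3, and 6 and 60.4, 55.7, and 69.4 CPM in Phf21b+/+ replicates 5, 7, and 8. The lowest Phf21bΔ4/Δ4 mouse was barely above the highest Phf21b+/+ mouse, and the log2 change of *Nlgn3* was 0.45 (standard error 0.14, FDR 0.155 by limma).

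The log2 ratio of *Nlgn1* to *Nlgn2*, the neuroligins of excitatory and inhibitory synapses, compares the genes within a mouse and does not depend on library size. It was 0.97, 0.23, and 1.0 in Phf21bΔ4/Δ4 replicates 2, 3, and 6 and 0.96, 0.99, and 0.84 in Phf21b+/+ replicates 5, 7, and 8. Phf21bΔ4/Δ4 replicates 2 and 6 lay among or just above the Phf21b+/+ mice, and replicate 3 lay below all others. The means were 0.73 ± 0.44 and 0.93 ± 0.08 (SD, n = 3 each), and the difference of -0.20 was within the spread of the mice (exact 2-sided permutation test, p = 0.9, and 1.0 after adjustment over the 3 ratios tested). Without Phf21bΔ4/Δ4 replicate 3 the difference was 0.05.

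**Figure D2:**
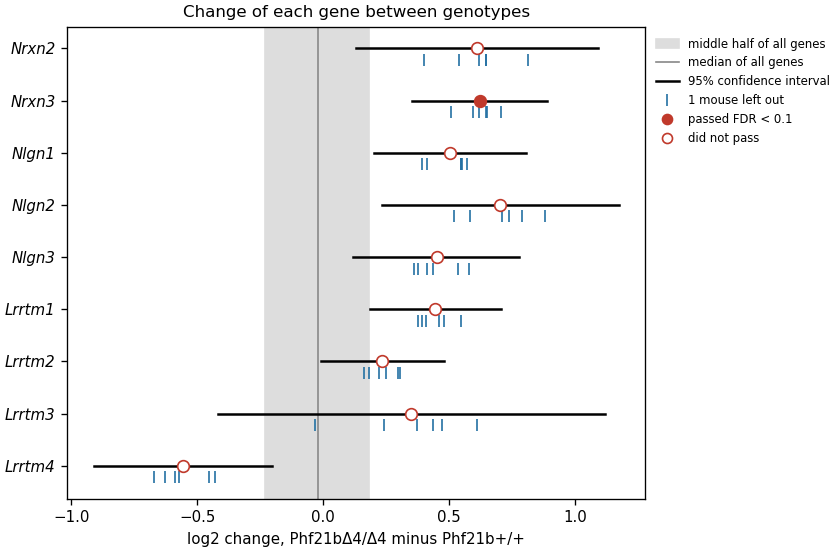
Log2 change of each gene (Phf21bΔ4/Δ4 minus Phf21b+/+, horizontal axis) as a circle with its 95% confidence interval from limma, filled where the gene passed, with blue marks for the change when 1 of the 6 mice was left out. The grey band holds the middle 50% of all 14477 genes, from -0.231 to 0.18, and *Nrxn3* is the only filled circle while *Lrrtm4* is the only gene below 0.

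The LRRTM genes did not share 1 direction. *Lrrtm1* (ENSMUSG00000060780.2), on chromosome 6 from 77242689 to 77257791 on the plus strand, had 123, 111, and 108 CPM in Phf21bΔ4/Δ4 replicates 2, 3, and 6 and 96.7, 79.4, and 76.3 CPM in Phf21b+/+ replicates 5, 7, and 8. All Phf21bΔ4/Δ4 mice were above all Phf21b+/+ mice, and the log2 change was 0.44 (95% confidence interval 0.18 to 0.70, FDR 0.134 by limma). *Lrrtm4* (ENSMUSG00000052581.13), farther along the same chromosome from 80018877 to 80810143 on the same strand, had 49.5, 60.1, and 69.2 CPM in Phf21bΔ4/Δ4 replicates 2, 3, and 6 and 101, 78.7, and 83.2 CPM in Phf21b+/+ replicates 5, 7, and 8. Every Phf21bΔ4/Δ4 mouse was below every Phf21b+/+ mouse, with a log2 change of -0.56 (95% confidence interval -0.91 to -0.20, FDR 0.141 by limma). The gap between the 2 genes is 2.76 Mb.

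The log2 ratio of *Lrrtm4* to *Lrrtm1* was -1.31, -0.89, and -0.64 in Phf21bΔ4/Δ4 replicates 2, 3, and 6 and 0.06, -0.01, and 0.12 in Phf21b+/+ replicates 5, 7, and 8. The genes had nearly equal CPM in each Phf21b+/+ mouse, and *Lrrtm1* was above *Lrrtm4* in each Phf21bΔ4/Δ4 mouse. The difference between genotypes was -1.003 (exact 2-sided permutation test, p = 0.1, the smallest p that 3 against 3 mice can give, and 0.3 after adjustment over the 3 ratios). Neither gene overlapped between genotypes and the 2 lay in opposite directions, so the ratio could not overlap either. The test is therefore no support separate from the levels above. Leaving out any 1 mouse kept the difference between -1.15 and -0.82.

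*Lrrtm2* (ENSMUSG00000071862.3), on chromosome 18 from 35209003 to 35215024 on the minus strand, had 118, 125, and 106 CPM in Phf21bΔ4/Δ4 replicates 2, 3, and 6 and 107, 100.4, and 88.7 CPM in Phf21b+/+ replicates 5, 7, and 8. Phf21bΔ4/Δ4 replicate 6 lay below Phf21b+/+ replicate 5, so the genotypes overlapped. The log2 change was 0.24, with a 95% confidence interval of -0.01 to 0.48 (FDR 0.221 by limma). *Lrrtm3* (ENSMUSG00000042846.8), on chromosome 10 from 63928472 to 64090277 on the minus strand, had 30.8, 62.3, and 25.4 CPM in Phf21bΔ4/Δ4 replicates 2, 3, and 6 and 29.5, 24.7, and 32.3 CPM in Phf21b+/+ replicates 5, 7, and 8. Only Phf21bΔ4/Δ4 replicate 3 stood above the Phf21b+/+ range. The log2 change of *Lrrtm3* was 0.35 (95% confidence interval -0.42 to 1.12, FDR 0.51 by limma), and without that mouse it was -0.03.

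**Figure D3:**
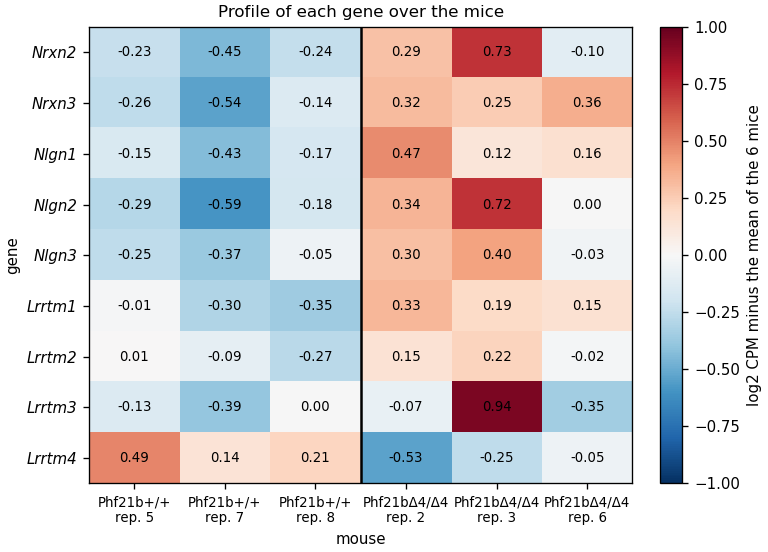
Log2 CPM of each gene (rows) in each mouse (columns, Phf21b+/+ left and Phf21bΔ4/Δ4 right of the line), after the mean of the gene over the 6 mice was subtracted, on a colour scale from -1 to 1. Phf21bΔ4/Δ4 replicate 3 stands out in *Nrxn2* (0.73), *Nlgn2* (0.72), and *Lrrtm3* (0.94), Phf21b+/+ replicate 7 is low in most genes, and the row of *Lrrtm4* has the opposite signs.

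The mice of a genotype differed in a way that several genes shared. Phf21bΔ4/Δ4 replicate 3 had the highest level of all 6 mice in 5 of the 9 genes, and replicate 6 had the lowest level among the Phf21bΔ4/Δ4 mice in 6 of them. Phf21b+/+ replicate 7 was the lowest Phf21b+/+ mouse in 7 of the 9 genes. When Phf21bΔ4/Δ4 replicate 6 was left out, 7 of the 9 genes passed (6 higher and *Lrrtm4* lower), and 2830 of all genes did. When any 1 of the other 5 mice was left out, none of the 9 passed.

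The genes most alike over the mice were found by the root mean square difference of the 6 values, each gene centred on its own mean, among 12965 other genes. *Nrxn2* and *Nlgn2* were near each other, at 0.0807 on the log2 scale, where their own spreads were 0.395 and 0.428. Other genes were nearer still, as *Nlgn2* ranked 16 in nearness to *Nrxn2*, and *Nrxn2* ranked 15 in nearness to *Nlgn2*. For the rest except *Lrrtm4*, the nearest of the 9 genes ranked between 84 (for *Nrxn3*) and 1965 (for *Lrrtm2*). The nearest gene was *Pde4d*, a cyclic AMP phosphodiesterase, for *Nrxn2* (0.0292) and *Pacs1*, a sorting protein of the trans-Golgi network, for *Nlgn2* (0.0273). For *Nrxn3* it was *Ephb3*, an ephrin receptor (0.0316), for *Nlgn1* *Cers1*, a ceramide synthase (0.0432), and for *Nlgn3* *Neurl1b*, an E3 ubiquitin ligase (0.0349). For *Lrrtm1* it was *Rrp12* (0.0445), for *Lrrtm2* the mitochondrial elongation factor *Tufm* (0.0237), for *Lrrtm3* *Castor2* (0.0948), and for *Lrrtm4* the histone gene *H4c6* (0.0436). *Lrrtm4* was nearest among the 9 genes to *Lrrtm2*, at 0.449, which ranked 9169 in nearness to it.

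To compare levels between genes, CPM was divided by the exonic length of each gene (RPKM). *Lrrtm1* had the highest level per length, 27.7 ± 3.62 RPKM in Phf21b+/+ mice and 37.6 ± 2.5 RPKM in Phf21bΔ4/Δ4 mice (SD, n = 3 each), above the range of every other gene in both genotypes. In Phf21b+/+ mice it was followed by *Lrrtm2*, *Nlgn2*, *Lrrtm4*, *Nrxn3*, *Nlgn1*, and *Nrxn2*, which ran from 16.4 to 10.4 RPKM and of which each overlapped with the next. *Lrrtm3* and *Nlgn3* came last at 6.79 and 6.67 RPKM, overlapped with each other, and lay below *Nrxn2*. In Phf21bΔ4/Δ4 mice *Nlgn2*, *Nrxn3*, *Lrrtm2*, *Nlgn1*, and *Nrxn2* followed *Lrrtm1* from 24.4 to 16.3 RPKM, again with overlapping neighbours, and *Lrrtm4* was in the lowest group with *Lrrtm3* and *Nlgn3*, at 9.70 ± 1.61 RPKM against 14.2 ± 1.86 RPKM in Phf21b+/+ mice.

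**Figure D4:**
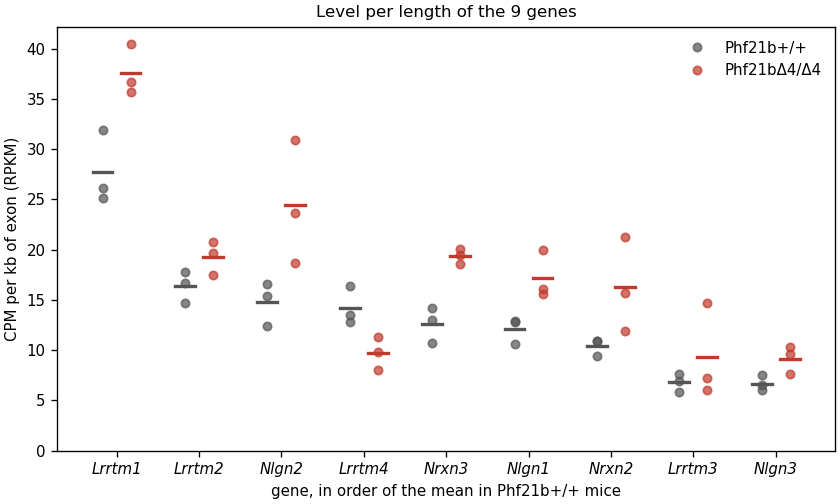
CPM per kilobase of exon (RPKM, vertical axis from 0) of the 9 genes in each Phf21b+/+ mouse (grey) and each Phf21bΔ4/Δ4 mouse (red), with a bar at the mean of 3 mice. *Lrrtm1* is highest in both genotypes, and *Lrrtm4* is the only gene whose red points lie below its grey points.

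Within a family, the shares of the summed RPKM had SDs of at most 1.71 percentage points in Phf21b+/+ mice. *Lrrtm4* made up 22.4%, 20.8%, and 22.2% of the LRRTM sum in Phf21b+/+ replicates 5, 7, and 8 and 10.7%, 11.9%, and 16.0% in Phf21bΔ4/Δ4 replicates 2, 3, and 6. The share of *Lrrtm1* was 42.5% ± 1.22 in Phf21b+/+ mice and 49.7% ± 4.47 in Phf21bΔ4/Δ4 mice, and that of *Lrrtm2* was 25.2% ± 1.66 and 25.4% ± 0.613 (SD, n = 3 each). Among the neuroligins, *Nlgn2* held 44.0% ± 1.11 and 47.7% ± 5.88, and *Nlgn3* held 19.9% ± 1.03 and 18.0% ± 0.0846, in Phf21b+/+ and Phf21bΔ4/Δ4 mice. These shares are not independent of the changes above, and they carry the same uncertainty about exon length.

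*Lrrtm1*, *Lrrtm2*, and *Lrrtm3* lie within the genes of the α-catenins *Ctnna2*, *Ctnna1*, and *Ctnna3*, on the opposite strand in each case, while *Lrrtm4* lies in no such gene. α-Catenins link cadherins to the actin cytoskeleton. *Ctnna2* had 178, 206, and 186 CPM in Phf21bΔ4/Δ4 replicates 2, 3, and 6 and 187, 154, and 170.3 CPM in Phf21b+/+ replicates 5, 7, and 8, which overlapped (log2 change 0.16, FDR 0.354 by limma), beside the 0.44 of *Lrrtm1*. *Ctnna1* and *Ctnna3* had log2 changes of -0.43 and -0.56 (FDR 0.246 and 0.239 by limma), beside 0.24 for *Lrrtm2* and 0.35 for *Lrrtm3*. None of the 3 passed. Phf21b+/+ replicate 7, the mouse with the choroid plexus genes, had 143 CPM of *Ctnna1* where the other mice had between 71.5 and 88.8 CPM. Exons of *Lrrtm2* and *Ctnna1* share 95 bp, and those of *Lrrtm1* and *Lrrtm3* share none with their host genes.

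The start sites of the genes that passed or moved most were read from RefSeq windows of 300 bases on GRCm38.p6, which were given for 6 of the 9 genes (10 windows). The windows shown are those of *Nrxn3*, the gene that passed, *Nlgn2*, the largest change, and the pair *Lrrtm1* and *Lrrtm4*, which lay in opposite directions. For *Nrxn3* and *Lrrtm4*, which have 3 and 2 windows, it is the most upstream one. The *Nrxn3* window lies inside the gene, whose annotated span begins at 88722876, and no window covers that position. Each runs 5′ to 3′ on the strand of the gene, and capitals mark every match, on either strand, to TGACG (the core of the cyclic AMP response element TGACGTCA that CREB binds), GGGCGG (the GC box), or TATAAA (the TATA box).
*Nrxn3*, chr12:88794254-88794553, plus strand: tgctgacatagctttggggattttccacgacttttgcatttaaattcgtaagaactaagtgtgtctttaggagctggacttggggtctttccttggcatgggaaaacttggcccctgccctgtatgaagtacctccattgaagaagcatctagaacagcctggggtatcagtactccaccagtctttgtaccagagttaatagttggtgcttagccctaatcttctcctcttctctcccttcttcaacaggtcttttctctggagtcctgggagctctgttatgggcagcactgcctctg
*Nlgn2*, chr11:69837735-69838034, minus strand: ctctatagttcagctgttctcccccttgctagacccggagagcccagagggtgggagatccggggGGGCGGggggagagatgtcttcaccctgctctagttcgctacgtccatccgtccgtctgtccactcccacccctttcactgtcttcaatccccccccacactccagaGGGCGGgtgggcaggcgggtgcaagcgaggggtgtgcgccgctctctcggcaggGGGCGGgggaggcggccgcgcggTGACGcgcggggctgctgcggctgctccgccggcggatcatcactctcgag
*Lrrtm1*, chr6:77242227-77242526, plus strand: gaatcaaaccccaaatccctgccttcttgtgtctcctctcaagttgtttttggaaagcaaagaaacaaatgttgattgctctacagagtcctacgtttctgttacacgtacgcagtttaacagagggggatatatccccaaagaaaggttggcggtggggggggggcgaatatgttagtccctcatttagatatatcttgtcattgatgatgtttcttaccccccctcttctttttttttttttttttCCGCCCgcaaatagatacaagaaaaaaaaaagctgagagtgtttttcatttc
*Lrrtm4*, chr6:80018627-80018926, plus strand: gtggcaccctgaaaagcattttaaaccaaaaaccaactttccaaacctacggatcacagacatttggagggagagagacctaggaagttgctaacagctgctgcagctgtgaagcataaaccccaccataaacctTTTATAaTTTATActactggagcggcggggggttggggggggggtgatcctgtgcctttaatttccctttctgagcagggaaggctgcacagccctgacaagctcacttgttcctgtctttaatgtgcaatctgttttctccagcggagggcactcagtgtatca

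The full element TGACGTCA was in 0 of the 10 windows and in 1.79% of all 32851 windows of this length. The shorter TGACG, which each full element also holds, was in 1 of the 10, that of *Nlgn2*, and in 20.8% of all windows. GGGCGG was in 3 of the 10 (3 matches in *Nlgn2*, 1 in *Lrrtm1*, and 1 in the second window of *Nrxn3*) and in 35.7% of all windows. TATAAA was in 1 of the 10, the window of *Lrrtm4* shown here, with 2 matches, and in 13.6% of all windows. The GC content was 68.7% for *Nlgn2*, 47.3% for the *Nrxn3* window shown, 40.7% for *Lrrtm1*, and 48.7% for *Lrrtm4*, where the median of all windows was 52.7%. These matches describe letters in the windows, and binding was not measured by RNA-Seq.

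Other proteins of the same adhesion systems were taken as 4 lists. Of 59 genes listed by symbol, 58 were measured, 48 had a log2 change above 0, and 1 passed, or 1.72% beside 1.22% of all genes. Proteins that bind neurexins or neuroligins outside the cell, with latrophilins and FLRT proteins, made up 20 of them, and 1 rose, 0 fell, and 19 did not pass (median log2 change 0.41). The gene that rose is *Mdga1*, whose membrane-anchored product binds neuroligins and blocks their contact with neurexins. It had 54.2, 59.6, and 61.3 CPM in Phf21bΔ4/Δ4 replicates 2, 3, and 6 and 37.1, 32.4, and 43.0 CPM in Phf21b+/+ replicates 5, 7, and 8, a log2 change of 0.65 (standard error 0.12, FDR 0.0959 by limma). The genotypes of *Mdga1* did not overlap, but its FDR was close to the threshold. *Mdga1* is not on the paper's list of changed genes from edgeR. No gene of the 4 lists rose past the threshold in 5 of the 6 fits without 1 mouse, and without Phf21bΔ4/Δ4 replicate 6 it was 24 genes that rose and 5 that fell. In that last fit, 1485 of all 14477 genes rose and 1345 fell. The highest and the lowest log2 changes on this list were 0.95 for *Adgrl2*, a latrophilin (FDR 0.153), and -1.67 for *Cbln2*, a secreted protein that joins neurexins to δ glutamate receptors (FDR 0.145), and neither passed by limma.

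The LAR-type receptor phosphatases, a second set of presynaptic organizers, and the postsynaptic proteins of their kind made up 18 genes. All 18 had a log2 change above 0 (median 0.36), as did 47.6% of all genes and 59.5% of the genes in the level range of the 9. In 11 of the 18 every Phf21bΔ4/Δ4 mouse was above every Phf21b+/+ mouse, beside 15.0% of all genes and 22.0% of those in the level range, and none of the 18 passed. The values ran from 0.03 for *Il1rapl1* (FDR 0.95) to 0.81 for *Slitrk4* (FDR 0.133), both by limma and both genes for postsynaptic partners of the phosphatases. Of 17 scaffold and other proteins linked to the tails of neurexins and neuroligins, 14 had a log2 change above 0 (median 0.22), and none passed. *Shank1*, a scaffold of the postsynaptic density, had the highest value, 0.59 (FDR 0.333), and *Lin7c*, a PDZ protein in a complex with the neurexin-binding kinase CASK, had the lowest, -0.47 (FDR 0.167), both by limma.

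**Figure D5:**
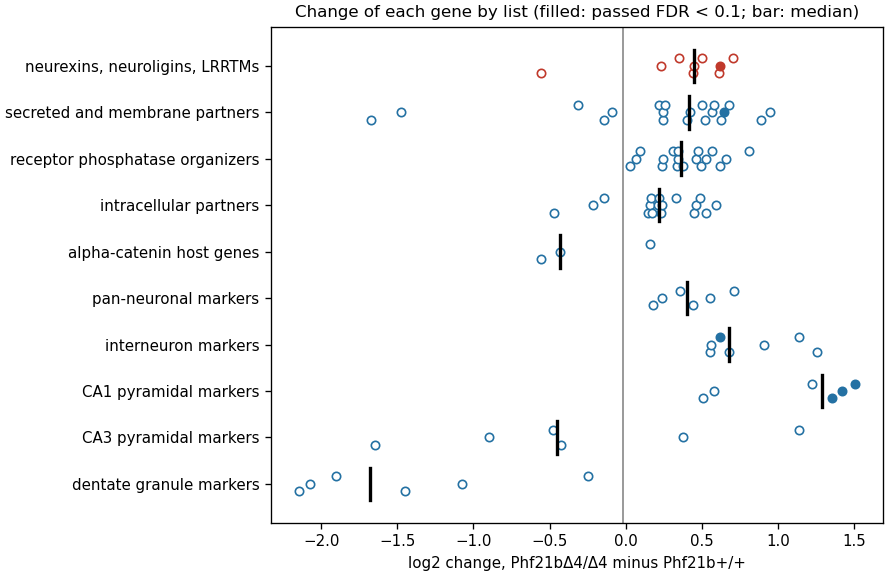
Log2 change of each gene (Phf21bΔ4/Δ4 minus Phf21b+/+, horizontal axis) by list, with the 9 genes in red, the partner and marker lists in blue, filled circles for genes that passed, a black bar at the median of each list, and a grey line at the median of all genes. The medians of the partner lists lie between -0.43 and 0.41, and those of the CA1 and dentate granule cell markers lie at 1.29 and -1.68.

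Markers of hippocampal cell types were read beside these genes. All 6 markers of dentate granule cells had a log2 change below 0 (median -1.68), and in 4 every Phf21bΔ4/Δ4 mouse was below every Phf21b+/+ mouse, beside 16.0% of all genes, but none passed. Their summed level was 235, 209, and 507 CPM in Phf21bΔ4/Δ4 replicates 2, 3, and 6 and 635, 530.2, and 539 CPM in Phf21b+/+ replicates 5, 7, and 8, and *Prox1*, the transcription factor that defines these cells, was at 68.2 ± 36.1 CPM and 133 ± 17.2 CPM (SD, n = 3 each). None of them was at 0. *Lrrtm4* had its highest Phf21bΔ4/Δ4 level in replicate 6, the Phf21bΔ4/Δ4 mouse with the highest sum, while replicate 2 had a higher sum than replicate 3 and a lower *Lrrtm4* level. The part of these cells in the lower *Lrrtm4* level was not tested.

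Of the 6 markers of CA1 pyramidal cells, 3 rose (*Fibcd1*, *Mpped1*, and *Gpr161*) and 0 fell, beside 0.553% of all genes that rose. The median log2 change of the 6 was 1.29. The 3 that rose, and *Gad2* below, are also on the paper's list of changed genes from these mice. The markers were chosen with earlier results of these data known, so these counts are no separate support. The summed level of the 6 CA1 markers was between 988 and 1065 CPM in Phf21bΔ4/Δ4 mice and between 406 and 447 CPM in Phf21b+/+ mice. The genotypes overlapped in *Wfs1*, *Pou3f1*, and *Man1a*. The 7 interneuron markers had a median log2 change of 0.68 and summed to between 644 and 817 CPM in Phf21bΔ4/Δ4 mice and between 447 and 500.3 CPM in Phf21b+/+ mice, and 1 of them, the GABA-synthesizing enzyme gene *Gad2*, rose (FDR 0.0831 by limma). The 6 general neuronal markers had a median log2 change of 0.40, close to the 0.45 of the 9 genes, and summed to between 6309 and 7848 CPM in Phf21bΔ4/Δ4 mice and between 4763 and 6080 CPM in Phf21b+/+ mice, and none passed. The 6 CA3 markers had a median of -0.45, with sums of 172 to 352 CPM and 304 to 373 CPM, the lowest in Phf21bΔ4/Δ4 replicate 3, and none passed. They did not share a direction, as 4 had a log2 change below 0 and 2, *Slc9a4* and *Grik4*, had a change above 0. No marker of the CA1, CA3, interneuron, or general neuronal lists was at 0 reads in any mouse. The part of the cell makeup of the samples in the 8 higher genes was not tested.

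Some of the 9 genes share exonic bases with other genes. Exons of *Nlgn3* share 41.2% of their length with *Gm21986*, which lies on the same strand, so that strand cannot separate their reads. On the opposite strand, where the strand setting of the counting is not stated and reads may be mixed, exons of *Lrrtm4* share 25.1% with the antisense gene *Gm4409*, and those of *Nlgn1* share 9.16% with the antisense gene *A830092H15Rik*. In *Nrxn2*, *Nrxn3*, and *Lrrtm2* the shared part was at most 4.94% with any gene, and *Nlgn2*, *Lrrtm1*, and *Lrrtm3* shared no exonic bases with another gene. The RPKM and shares above used the full exonic length of each gene, shared bases included. The places of *Nlgn3* and *Lrrtm4* in the order of levels per length are less certain for this reason.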

How the data were processed

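RNA was extracted from hippocampi with an RNeasy kit, and libraries were made from total RNA after removal of ribosomal RNA. The matrix the authors deposited holds log2 CPM per gene and mouse. Per their methods, the authors trimmed reads (Trimmomatic 0.39), aligned them to GRCm38 (STAR 2.7.3a), counted them per GENCODE gene (featureCounts, Subread 1.6.4), required a CPM of 1 or more in 2 or more samples, and scaled by the effective library size of edgeR. The prior count and the strand setting are not given in the sources used here.

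Reads were worked out from the steps between low values. Within a tolerance of 0.1, 100.0% of values were whole reads, with a mean prior count of 0.1. CPM in the text is 2 raised to the deposited log2 value. A count test was not used, because the deposited unit is log2 CPM. Genotypes were compared on the log2 values of all 14477 genes with limma 3.58.1 in R 4.3.3 (lmFit, eBayes with trend, no covariate, 2-sided), with Benjamini-Hochberg adjustment over all genes and the thresholds of the paper's methods (FDR under 0.1, fold change above 1.3). Ratios of genes within a mouse were tested exactly over the 20 splits of 6 mice. Exonic lengths, overlaps, and positions came from GENCODE M21, in which 98.8% of symbols were found, while the authors counted over release M24 of the same build, so RPKM and shares may differ where gene models changed. The test was checked on simulated reads, in which 92 of 100 genes changed 2-fold and 100 of 100 changed 4-fold passed. Of the unchanged genes 14 passed, and 0 did when no gene was changed. The simulation gave every gene the same relative spread and no differences shared by the genes of a mouse. It therefore does not cover the differences between mice seen in these data. Each mouse is a separate animal. Depth was 20495605 to 24881257 reads per mouse.

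The genes, partner lists, and 13 marker lists were chosen with earlier results of these data known, the lists from general knowledge. Named genes are the 9 genes, *Phf21b*, partner genes that passed, the highest and lowest change of each partner list, the α-catenins, and the nearest profile of each gene. *Prox1* and other markers were named after their values were seen. *Nxph4* and *Gbx2* of the lists were not measured. Alternatives covered the variance prior, weights, filters, pseudocounts, scaling, length and GC content, voom, thresholds, and each mouse left out.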

Additional observations from a re-analysis of the deposited data

How the results depend on the processing

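No paired analysis was made, because the sources used here give no litter or other pairing of these mice. The number of the 9 genes that passed, 1, became 0 with the same prior variance for all genes, genes with an average log2 CPM under 1 dropped, quantile normalization, loess correction for exonic length, voom on recovered reads, or an FDR under 0.05, and it became 7 with mice weighted by arrayWeights (6 higher, 1 lower). It ranged from 0 to 7 with each mouse left out, the 7 coming without Phf21bΔ4/Δ4 replicate 6. The 1 partner gene became 0 under the same settings except the length correction, 2 with each mouse centred on its median, and 25 with arrayWeights, and it ranged from 0 to 29 with each mouse left out, again highest without Phf21bΔ4/Δ4 replicate 6. Without Phf21bΔ4/Δ4 replicate 3 the 1 partner gene that passed was lower, not higher. Over all genes, 176 became 75 with the same prior variance, 101 with the filter, 25 at an FDR under 0.05, and 3549 with arrayWeights, and between 9 (without Phf21b+/+ replicate 8) and 2830 with each mouse left out. The cause of these moves was not tested.

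*Nrxn3* passed in 7 of its 17 alternatives (FDR 0.0147 to 0.303). *Phf21b* passed with arrayWeights (log2 change -1.32) and without Phf21bΔ4/Δ4 replicate 6, and its change ranged from -1.12 to -0.70 over the fits without 1 mouse. *Lrrtm3* turned to -0.034 without Phf21bΔ4/Δ4 replicate 3 (range -0.034 to 0.61). The difference in the ratio of *Nlgn1* to *Nlgn2* ranged from -0.334 to 0.053, and that of *Nrxn3* to *Nrxn2* from -0.22 to 0.25. The former changed sign without Phf21bΔ4/Δ4 replicate 3, and the latter without Phf21bΔ4/Δ4 replicate 6 (-0.22) or Phf21b+/+ replicate 7 (-0.033). That of *Lrrtm4* to *Lrrtm1* and the changes of the other 8 genes kept their direction in all alternatives run.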

Other observations

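Lists of cells outside the hippocampal neurons gave the following values, beside 0.663% of all genes that fell. The lists were chosen with earlier results of these data known. The habenula markers *Tac2*, *Gpr151*, *Chrna3*, *Pou4f1*, *Irx2*, and *Slc5a7* are also on the paper's list of changed genes from these mice. So are *Tcf7l2*, the thalamus marker that fell, and *Aqp4*, the astrocyte marker that fell. The counts on the habenula, thalamus, and astrocyte lists are therefore no separate support. The 8 medial habenula markers had a median log2 change of -5.29 and 7 of them fell, and of 6 measured thalamus markers 1 fell (median -1.45), with sums of 117 to 183 CPM in Phf21bΔ4/Δ4 mice and 176 to 406 CPM in Phf21b+/+ mice. Of the 6 choroid plexus markers 1 fell (median -4.51). The 6 astrocyte markers had a median of 0.05 and 1 fell, the 6 oligodendrocyte markers had a median of -0.17, the 4 oligodendrocyte precursor markers 0.45, the 5 microglia markers 0.06, and the 5 endothelial markers 0.37, and none of the last 4 lists had a gene that passed by limma.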
